A study of Caenorhabditis elegans with 4 samples.

Results

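The peaks described here are the sites on chromosome IV of Caenorhabditis elegans that the authors called as bound by EPC-1. They were taken as every entry on chromosome IV in the 2 deposited peak lists, which are in coordinates of WormBase release WS190, and the lists were kept apart. Replicate 1 held 597 such peaks of 3455 in all (17.3%) and replicate 2 held 485 of 2833 (17.1%). The peaks came from ChIP-seq on whole bodies of L3 larvae of the wild-type strain N2, crosslinked with EGS and formaldehyde, with no mutation, transgene or treatment named in the labels. The series has 4 samples, of which 2 are the EPC-1 immunoprecipitations used here, called replicates 1 and 2; the other two are input DNA and were not analysed here. Whole larvae mix all tissues, so a site bound in few cells and a site bound weakly in many cannot be told apart.

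EPC-1 is the worm member of the Enhancer of Polycomb family. In budding yeast and mammals these proteins are scaffold subunits of NuA4/TIP60 acetyltransferase complexes, which acetylate histones H4 and H2A on nucleosomes and are found mainly at transcribed genes. Chromosome IV is known as the chromosome that carries most of the worm's piRNA genes, short transcription units expressed in the germ line whose products are bound by the Piwi protein PRG-1. These genes are concentrated in 2 broad domains of IV, and 2 fixed intervals stand for them here, from 4500 to 7000 kb (the left interval) and from 13500 to 17200 kb (the right interval). EPC-1 peaks inside these intervals were set beside those on the rest of IV for density, width, spacing and sharing between the replicates. Which genes lie under the peaks was not examined, since no annotation in WS190 coordinates was used here.

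Both lists gave the same outline of chromosome IV. Peaks were fewer per Mb inside either piRNA-rich interval than on the rest of the chromosome. The 2 intervals were unlike each other in how their peaks were arranged. Peaks of the left interval had about the median spacing of the rest of IV, though a higher upper quartile of distances. Those of the right interval stood in tight groups separated by long stretches with no peak in either list. Peaks of the right interval also had higher median scores and were more often wide. These are values of 2 lists, and an exact sign-flip permutation over 2 lists cannot give a two-sided p below 0.5, so no difference between the intervals and the rest was tested. Intervals on shares are exact Clopper-Pearson 95% intervals that cover counting error only.

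The members on IV as a whole were near the pooled values of the other chromosomes in most measures. IV carried 34.3 peaks per Mb in replicate 1 and 27.9 in replicate 2, against 34.6 and 28.5 on the other 5 chromosomes together. Single chromosomes ranged from 50.7 (III) to 19.7 (X) per Mb in replicate 1, and from 42.5 (I) to 14.5 (X) in replicate 2. Median width on IV was 1551 bp and 1725 bp, against 1559 bp and 1695.5 bp elsewhere. Peaks of 3 kb or more made up 8.21% and 14.2% of IV, against 7.91% and 11.1% elsewhere. The replicate 2 share was the highest of the 6 chromosomes. The narrowest peak of IV measured 941 bp in replicate 1 and 1179 bp in replicate 2, and the widest 7458 and 7584 bp. The median score, the authors' own value for each peak, was 243 on IV and 242 elsewhere in replicate 1, and 262 and 242 in replicate 2. Many peaks shared a tied score of 3100, and on IV 4 peaks of replicate 1 (up to 3217) and 1 of replicate 2 (3112) exceeded it. What the tie stands for is not known here. A score of 3100 or more was reached by 40 peaks of IV in replicate 1 (6.70%) and by 34 in replicate 2 (7.01%), close to the 6.48% and 7.27% of all peaks in each list. The peaks covered 6.32% of the 17.4 Mb span of IV, which runs from its first peak to its last, in replicate 1 and 5.78% in replicate 2.

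Density was lower in both intervals than on the rest of IV. The left interval had 71 peaks in replicate 1 (28.4 per Mb) and 54 in replicate 2 (21.6 per Mb). The rest of IV had 424 peaks (37.8 per Mb) and 338 peaks (30.1 per Mb). The ratio of the left interval to the rest was therefore 0.751 in replicate 1 and 0.716 in replicate 2, a mean of 0.734 ± 0.0244 (SD, n = 2). The right interval had 102 peaks (27.6 per Mb) in replicate 1 and 93 (25.1 per Mb) in replicate 2, with ratios of 0.729 and 0.834 and a mean of 0.781 ± 0.0741 (SD, n = 2). Both intervals lay below the rest in both lists.

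The same comparison can be read as shares. The left interval takes up 14.4% of the span of IV and held 11.9% of its peaks in replicate 1 (95% interval 9.41 to 14.8) and 11.1% in replicate 2 (8.48 to 14.3). The right interval takes up 21.3% of the span and held 17.1% of the peaks in replicate 1 (14.2 to 20.3) and 19.2% in replicate 2 (15.8 to 23.0). The span share lay above the counting interval for the left interval in replicate 2 and for the right interval in replicate 1, and inside it in the other two cases. Counting error alone thus covers the shortfall in 1 list for each interval. The counting interval treats peaks as independent, which grouped peaks are not, so a span share outside it is no test of a shortfall.

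The rest of IV was not even. The stretch between the intervals, from 7000 to 13500 kb, was the densest part of at least 1 Mb, with 41.1 peaks per Mb in replicate 1 and 31.7 in replicate 2. The left end, up to 4500 kb, had 33.0 and 28.1. The short right end beyond 17200 kb had only 10 and 7 peaks over 0.262 Mb, or 38.2 and 26.7 per Mb. Each piRNA-rich interval was below all 3 of these stretches in both lists.

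**Figure D1:**
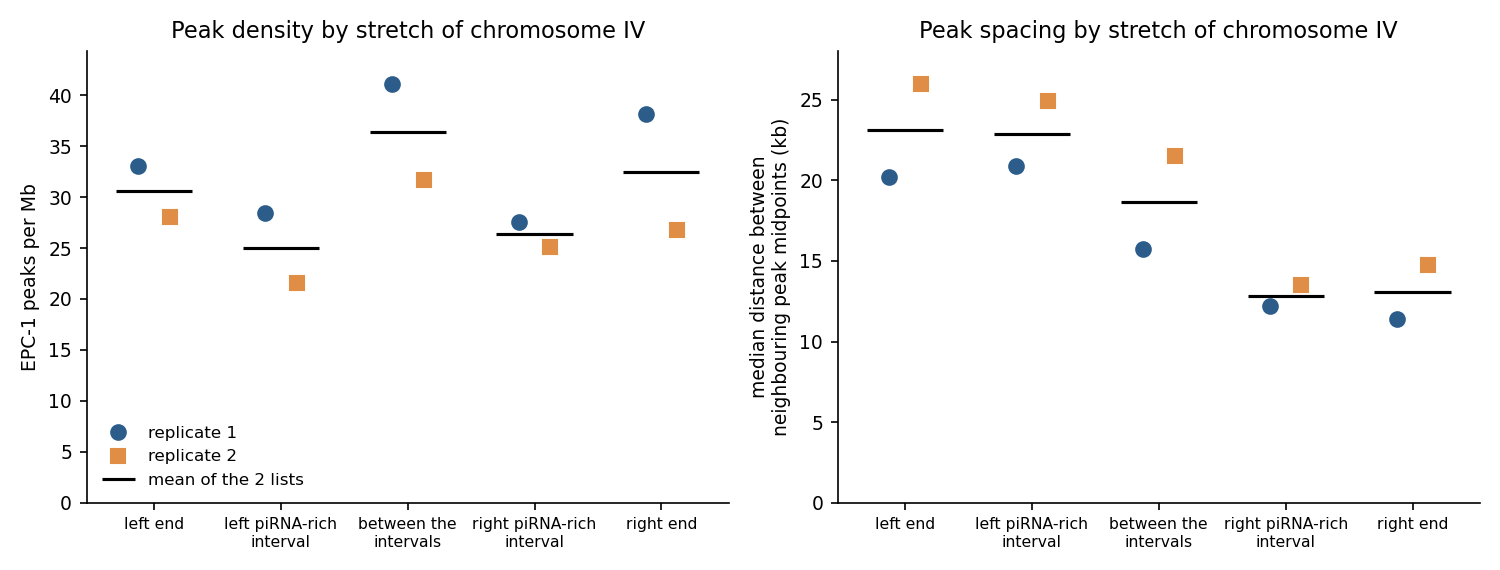
Left panel, EPC-1 peaks per Mb, and right panel, median distance between neighbouring peak midpoints in kb, for 5 stretches of chromosome IV from left to right; circles are replicate 1, squares replicate 2 and bars the mean of the 2 lists. The left interval has low density (28.4 and 21.6 per Mb, the lowest of the 5 in replicate 2 only) with a spacing like that of the left end, while the right interval combines low density (27.6 and 25.1 per Mb, the lowest in replicate 1 only) with the shortest spacing between the ends (12.18 and 13.51 kb).

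The shortfall was uneven inside each interval. The 5 windows of 500 kb that make up the left interval held, from left to right, 16, 9, 15, 11 and 20 peaks in replicate 1. In replicate 2 they held 17, 8, 9, 6 and 14. The median full window of IV held 17 peaks in replicate 1, and in replicate 2 the median lay midway between 13 and 14. The outer windows of the left interval lay near or above that, and the sparse part was the middle of the interval, from 5.0 to 6.5 Mb. The 7 full windows of the right interval held 17, 11, 14, 22, 8, 9 and 16 peaks in replicate 1. In replicate 2 they held 16, 8, 13, 18, 8, 9 and 16. The window from 15000001 to 15500000 was well filled in both lists, and the one to its right was the emptiest of IV by the mean of the lists, though not in replicate 2.

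The 3 densest and the 3 emptiest of the 34 full windows were named by the mean of the lists, with ties taken from the left. The densest lay between the intervals, from 11000001 to 11500000 (28 peaks in replicate 1 and 20 in replicate 2), from 7500001 to 8000000 (25 and 21) and from 12000001 to 12500000 (26 and 20). The emptiest lay in the intervals, from 15500001 to 16000000 (8 in each list), from 5000001 to 5500000 (9 and 8) and from 6000001 to 6500000 (11 and 6). The window from 10500001 to 11000000, between the intervals, tied with the last 2 of these by the mean of the lists, with 9 and 8 peaks.

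Spacing set the 2 intervals apart. Neighbouring midpoints in the right interval were a median of 12.18 kb apart in replicate 1 and 13.51 kb apart in replicate 2, against 17.5 kb and 22.6 kb on the rest of IV. The ratio to the rest was 0.697 and 0.597, a mean of 0.647 ± 0.0707 (SD, n = 2). The left interval's median distance was 20.9 kb and 24.9 kb, with ratios of 1.20 and 1.10 and a mean of 1.15 ± 0.0665 (SD, n = 2). That mean fell below 1 with the borders moved outward by 0.25 Mb (0.984) and among peaks scoring 100 or more (0.900). By the median, the right interval was therefore the more closely spaced although it had fewer peaks per Mb than the rest.

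Close neighbours were frequent in the right interval. Of its 101 neighbour distances in replicate 1, 34 (33.7%) were 5 kb or less, and of the 92 in replicate 2, 23 (25.0%) were. On the rest of IV the shares were 17.3% (73 of 421) and 12.5% (42 of 335). The left interval was near the rest, with 15.7% (11 of 70) and 13.2% (7 of 53). At the other end of the distribution, the upper quartile of distances in the right interval was 40.2 kb and 45.8 kb, above the 34.8 kb and near the 45.4 kb of the rest. In the left interval it was higher still, at 46.8 kb and 70.7 kb. Short and long distances were thus both frequent in the right interval, and long ones in the left interval too.

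Taken as groups of peaks whose midpoints follow each other within 5 kb, the right interval held 21 groups with 55 of its 102 peaks in replicate 1, and 16 groups with 39 of its 93 peaks in replicate 2. The left interval held 9 groups with 20 of 71 peaks and 6 groups with 13 of 54. On the rest of IV there were 63 groups with 136 of 424 peaks and 39 groups with 81 of 338. The group with the most peaks in both lists lay in the right interval from 15036427 to 15050155, where 6 peaks of replicate 1 and 4 of replicate 2 fell within 13.7 kb. The replicate 1 peaks of this group scored between 54.5 and 894, and those of replicate 2 between 385 and 1213. Another group of the right interval, from 16940672 to 16956918, had 4 and 3 peaks, with top scores of 3100 in both lists. The next in order, from 12085960 to 12094906 between the intervals, had 3 peaks in each list, none scoring above 345.

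**Figure D2:**
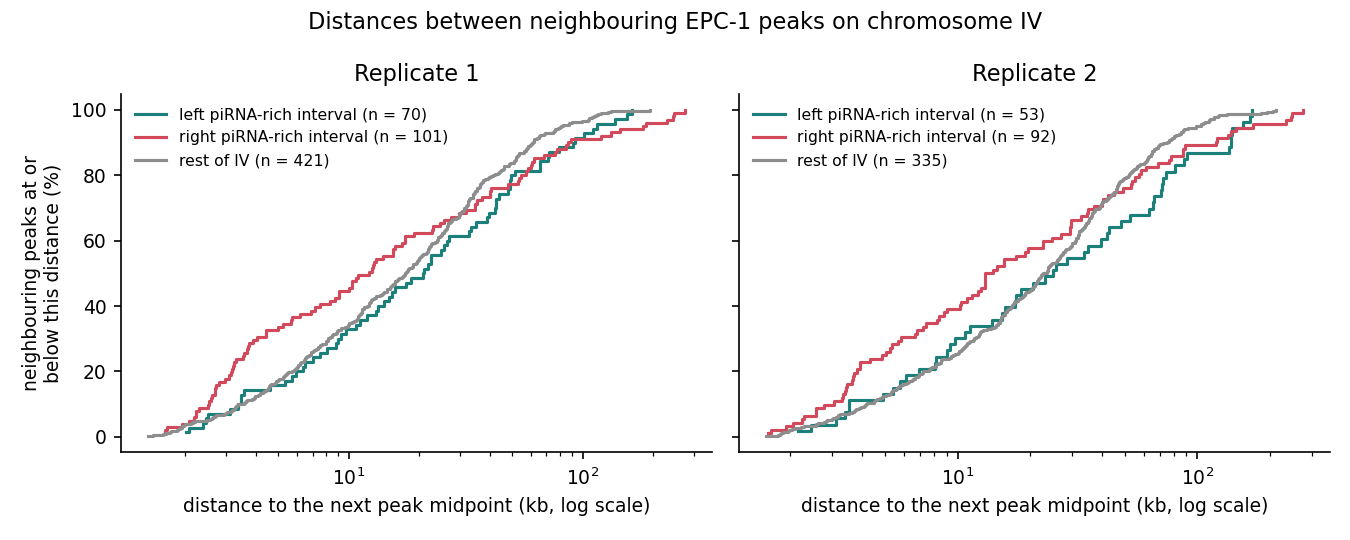
Cumulative share of neighbouring peaks (vertical axis, percent) whose midpoints lie at or below a given distance (horizontal axis, kb, log scale), for each replicate; colours mark the left interval, the right interval and the rest of IV, with the number of distances in the key. The right interval starts above the other curves (33.7% and 25.0% of its distances are 5 kb or less) and crosses below the rest of IV at long distances, up to 273 kb and 275 kb.

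Long stretches with no peak in either list were the counterpart of these groups. The 4 longest on IV all lay in the right interval. They ran from 16171583 to 16414532 (243 kb), from 14114035 to 14355640 (242 kb), from 15896844 to 16127998 (231 kb) and from 13550209 to 13776840 (227 kb). The fifth, from 10505151 to 10696459 (191 kb), lay between the intervals. Stretches of over 100 kb, a length chosen after the values were seen, made up 42.6% of the right interval, 26.5% of the left interval and 13.2% of the rest of IV. There were 9 of them in the right interval, 5 in the left and 12 on the rest.

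The place of an interval along the chromosome is shared by other chromosomes, so the same fractions of each span were measured there. At the place of the left interval, the ratio of density to the rest of the chromosome ran from 0.977 to 1.29 on chromosomes I, II, III and V over both lists, and was 0.778 and 0.653 on X. The ratios of IV, 0.751 and 0.716, were below those of all 4 other autosomes in both lists. They were below X in replicate 1 and above it in replicate 2. An exact permutation of 1 chromosome against 5 has no p below 0.167, so the rank of IV carries no test.

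At the place of the right interval IV did not stand alone. Density ratios were 0.569 and 0.627 on V, lower than the 0.729 and 0.834 of IV, and 0.802 and 0.844 on I. They were 0.953 and 1.03 on II, 1.17 and 1.15 on III, and 1.26 and 1.44 on X. Stretches of over 100 kb without a peak made up 60.8% of this place on V against 33.0% of the rest of V outside both places, 42.6% against 13.2% on IV, and 23.0% against 5.53% on I. The shares were below the rest on X (30.4% against 46.5%), II (8.90% against 19.8%) and III (7.75% against 9.90%). The spacing went another way, with ratios of 1.43 and 1.19 on V against 0.697 and 0.597 on IV. Only X in replicate 2 (0.527) had a lower spacing ratio than IV at this place, and there density was higher than on the rest of X, not lower. IV had the highest ratio of median scores of the 6 chromosomes at this place in both lists, 1.51 and 1.39.

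**Figure D3:**
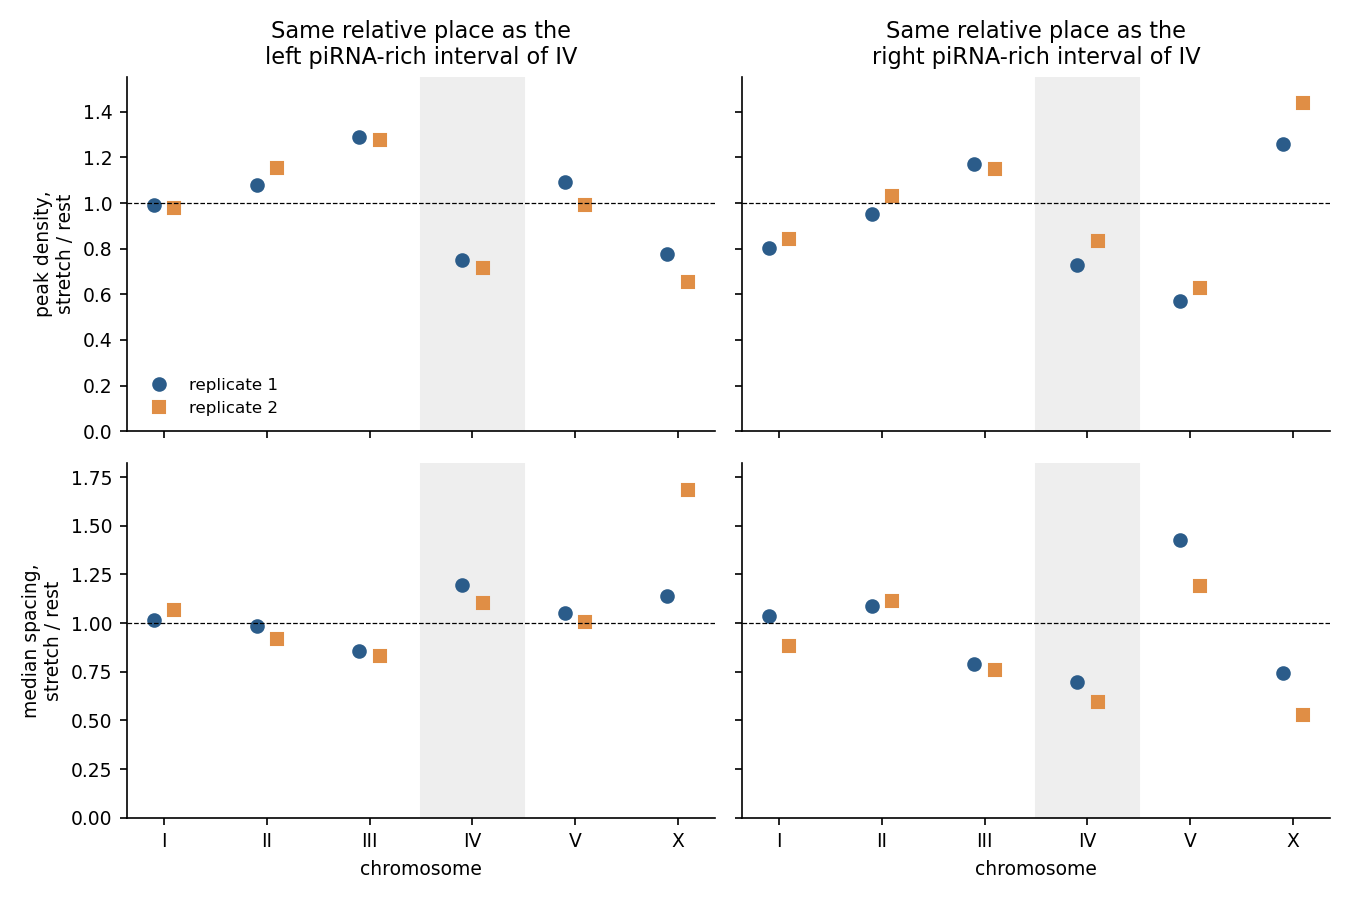
Ratio of peak density (top) and of median neighbour distance (bottom) between a stretch and the rest of its chromosome, for the stretch at the same relative place as the left interval (left column) and the right interval (right column) on each of the 6 chromosomes; circles are replicate 1, squares replicate 2, the dashed line is a ratio of 1 and IV is shaded. At the left place IV (0.751 and 0.716) lies below the other autosomes, and at the right place it combines a low density ratio (0.729 and 0.834) with a low spacing ratio (0.697 and 0.597).

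Peak width differed little between the intervals and the rest by the median, and more in the upper part of the distribution. Peaks of the left interval had median widths of 1506 and 1639.5 bp in replicates 1 and 2, against 1559.5 bp and 1722.5 bp on the rest of IV, a mean ratio of 0.959 ± 0.00981 (SD, n = 2). For the right interval it was 1589.5 bp and 1860 bp, a mean ratio of 1.05 ± 0.0428 (SD, n = 2). The upper quartile was 2317 bp and 2504 bp in the right interval and 2082.5 bp and 2483 bp in the left, against 1973 bp and 2153 bp on the rest. Peaks of 3 kb or more made up 12.7% (13 of 102) and 21.5% (20 of 93) of the right interval. Their share was 8.45% (6 of 71) and 16.7% (9 of 54) in the left interval, and 7.08% (30 of 424) and 11.8% (40 of 338) on the rest. The order of the 3 shares was the same in both lists.

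The share of bases under peaks was 5.47% and 5.83% in the right interval, 5.10% and 4.49% in the left, and 6.88% and 6.05% on the rest of IV, for replicates 1 and 2 in turn. Both intervals lay below the rest in both lists.

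The widest shared region of IV lay in the right interval, from 17097420 to 17105003, with widths of 7458 and 7584 bp in replicates 1 and 2 and a score of 3100 in both. The next widest in that interval, from 15076516 to 15082450, was 3753 bp and 5935 bp wide with scores of 426 and 949. In the left interval the widest were from 4657429 to 4661682 (4111 and 4254 bp, scores 3100 and 2955) and from 6789024 to 6793252 (2531 and 4229 bp, scores 2721 and 1956). On the rest of IV the widest were from 11033093 to 11039127 (5843 and 4140 bp), from 11951969 to 11957746 (5690 and 5637 bp) and from 4467785 to 4473551 (5756 and 5493 bp). Width and score did not always go together, since the region at 11033093 scored only 177 and 61.1.

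Scores were higher in the right interval. Its median score was 326 in replicate 1 and 314 in replicate 2, against 216 and 226 on the rest of IV, and the quartiles were 126 and 716 against 110 and 632 in replicate 1, and 151 and 789 against 108 and 682 in replicate 2. The left interval had medians of 219 and 288, so it matched the rest in replicate 1 and lay above it in replicate 2. The tied value of 3100 or more was reached by 7 of 71 and 6 of 54 peaks of the left interval (9.86%, interval 4.06 to 19.3, and 11.1%, 4.19 to 22.6). The right interval had 8 of 102 and 7 of 93 (7.84%, 3.45 to 14.9, and 7.53%, 3.08 to 14.9). On the rest of IV it was 25 of 424 and 21 of 338 (5.90%, 3.85 to 8.58, and 6.21%, 3.89 to 9.34). In both lists this share was highest in the left interval and lowest on the rest. The counting intervals overlap widely, but they treat grouped peaks of the same library as independent. Their overlap is therefore no test, and whether the shares differ was not tested.

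By mean score percentile of the 2 lists, the highest shared regions of IV were from 3049328 to 3051647 (scores 3100 and 3112) and, in the left interval, from 4747130 to 4750838 (3147 and 3100). The next 4, all at 3100 in both lists and ordered only by position, were from 384407 to 387234, from 389489 to 391504, from 1595051 to 1596829 and from 1658171 to 1660254, in the left end. Besides the region at 4747130, the rule named 4 regions of the left interval at 3100 in both lists, from 4649894 to 4653141, from 4809441 to 4811598, from 5368185 to 5371929 and from 6584710 to 6586631. In the right interval it named 5, from 14823149 to 14826174, from 16862555 to 16864692, from 16864684 to 16867125, from 16945971 to 16947889 and from 17083638 to 17085819, again all at 3100 in both lists. Among such ties the rule kept the leftmost, which leaves out the regions from 6755612 to 6757722 in the left interval and, in the right, from 17097420 to 17105003 and from 17116897 to 17121707, also at 3100 in both lists. Of all 6 regions of the left interval at 3100 or more in both lists, 3 lie left of 5.0 Mb, a position the rule did not set. That part held 16 of the 71 peaks of the left interval in replicate 1 and 17 of the 54 in replicate 2. Of all 7 in the right interval, 6 lie right of 16 Mb, again not a position of the rule. They all fall between 16862555 and 17121707, and those at 16862555 and 16864684 overlap, so they are not 6 separate places.

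Sharing between the lists was like that of the whole genome on IV. Of the 597 peaks of replicate 1, 470 (78.7%, interval 75.2 to 81.9) overlapped a peak of replicate 2 by at least 1 bp, against 79.0% of all replicate 1 peaks. In the other direction, 461 of 485 (95.1%, 92.7 to 96.8) had a replicate 1 partner, the same share as the 95.1% of all replicate 2 peaks. The lists had 882 kb in common on IV, which is 80.2% of what the replicate 1 peaks cover and 87.7% of what the replicate 2 peaks cover. Merged, they gave 608 separate regions on IV, of which 71 lay in the left interval and 103 in the right.

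Replicate 1 peaks of the right interval had a partner more often than those on the rest of IV. The share was 91 of 102 (89.2%, 81.5 to 94.5) against 326 of 424 (76.9%, 72.6 to 80.8). Peaks are grouped and share a library, so these intervals are no test of the difference. In the other direction the shares were level, with 87 of 93 replicate 2 peaks (93.5%, 86.5 to 97.6) against 322 of 338 (95.3%, 92.4 to 97.3). In the left interval 53 of 71 replicate 1 peaks (74.6%, 62.9 to 84.2) and 52 of 54 replicate 2 peaks (96.3%, 87.3 to 99.5) had a partner, within the counting error of the rest in both lists. The mean difference over both lists between the right interval and the rest was 5.31 percentage points, 0.237 when at least 50% of each peak had to overlap and 1.52 among peaks scoring 100 or more. Replicate 2 also had nearly as many peaks as replicate 1 in the right interval. The ratio of peak numbers, replicate 1 to replicate 2, was 1.10 there, 1.31 in the left interval and 1.25 on the rest of IV.

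The shares of replicate 1 were farthest apart among low-scoring peaks. In the lowest score quartile of the list, 12 of 18 peaks of the right interval (66.7%, 41.0 to 86.7) were shared, against 37 of 105 on the rest of IV (35.2%, 26.2 to 45.2) and 4 of 17 in the left interval (23.5%, 6.81 to 49.9). The intervals of the right interval and the rest overlap. In the highest quartile of either list every peak of IV was shared, 144 of 144 in replicate 1 (interval from 97.5% up) and 123 of 123 in replicate 2 (from 97.0% up). Shares by quartile on the other chromosomes were not examined here, so this is not shown to be particular to IV. The lowest quartile held 17.6% of the right interval's peaks in replicate 1 and 15.1% in replicate 2, against 24.8% and 24.0% on the rest. The right interval thus had a smaller share of such low-scoring peaks.

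**Figure D4:**
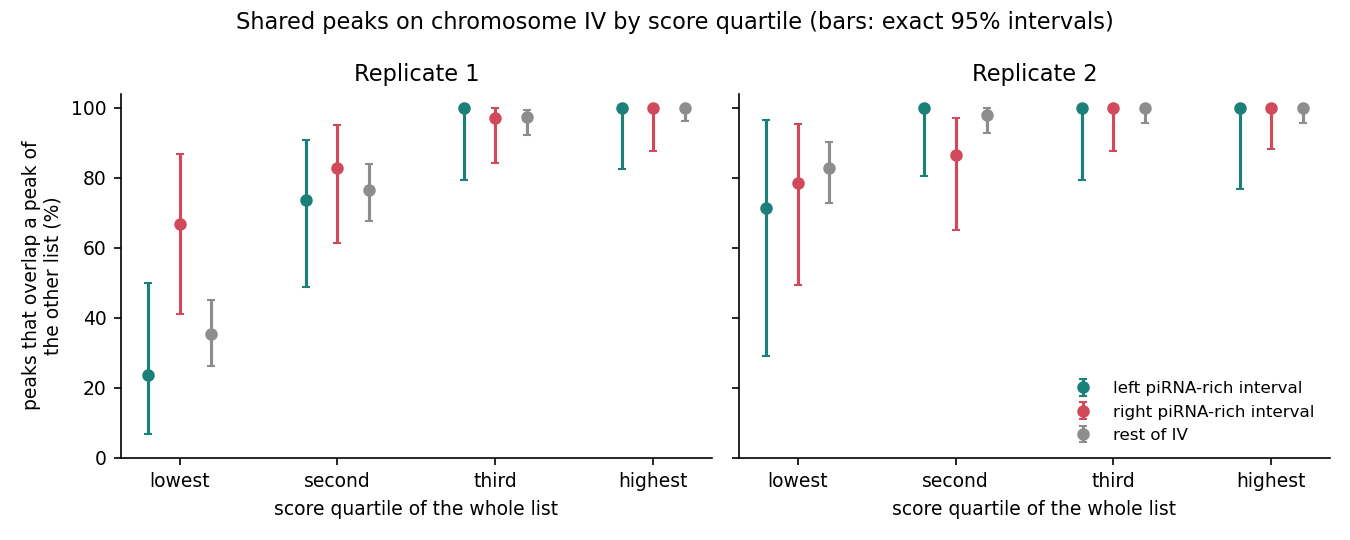
Share of peaks on chromosome IV that overlap a peak of the other list (vertical axis, percent) by score quartile of the whole list, for the left interval, the right interval and the rest of IV in each replicate; bars are exact 95% intervals for counting error. Sharing reaches 100% in the highest quartile in every stretch, and the widest separation is in the lowest quartile of replicate 1, at 23.5%, 66.7% and 35.2%.

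The 461 pairs of peaks formed on IV, each peak used once and matched by largest overlap, had a Spearman rho of 0.903 between their scores, and 0.903, 0.885 and 0.905 in the left interval (52 pairs), the right interval (87) and the rest (322). These correlations are across peaks of the same 2 libraries and describe them only. The replicate 1 score was the higher in 71.4% of the 420 pairs below the tied value, with a median ratio of 1.24. In the right interval the median ratio was nearer 1, at 1.11 (quartiles 0.804 and 1.36), with replicate 1 higher in 45 of 79 pairs (57.0%). The lists were thus less offset there, but not more closely correlated. On the rest the median ratio was 1.31 (1.00 and 1.68), with replicate 1 higher in 223 of 296 (75.3%), and in the left interval it was 1.35 (0.959 and 1.60), with 32 of 45 (71.1%).

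Widths of pairs moved the same way. Replicate 2 peaks were the wider in 76 of the 87 pairs of the right interval (87.4%), against 230 of 322 on the rest (71.4%) and 35 of 52 in the left interval (67.3%). The median difference, replicate 2 less replicate 1, was 126 bp in the right interval, 62.5 bp in the left and 69.5 bp on the rest. In the right interval, then, replicate 2 peaks stood relatively wider and scored relatively higher than elsewhere on IV. How read depth and background differed between the libraries along the chromosome was not tested.

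**Figure D5:**
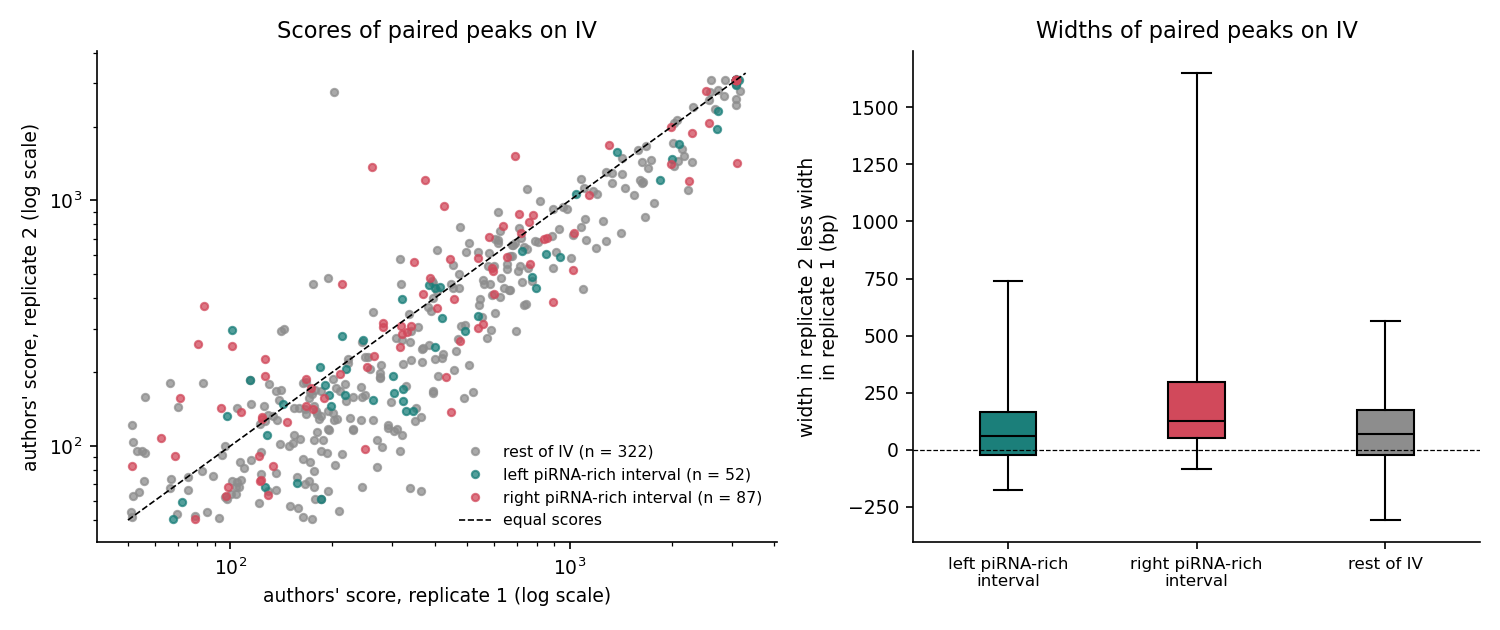
Left panel, the authors' score of each paired peak on IV in replicate 1 (horizontal) and replicate 2 (vertical), both on log scales, with the line of equal scores; right panel, width in replicate 2 less width in replicate 1 in bp, with boxes for quartiles, lines for medians and whiskers from the 5th to the 95th percentile. Points of the right interval are centred nearer the line by their median (ratio 1.11 against 1.31 on the rest) and its box lies higher (median 126 bp against 69.5 bp).

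Some sites were joined in 1 list and apart in the other. On IV 9 peaks of replicate 2 each took in 2 peaks of replicate 1 that overlapped no other replicate 2 peak, and no peak of replicate 1 did the reverse. Of the 9, 4 were among the 93 replicate 2 peaks of the right interval, 1 among the 54 of the left and 4 among the 338 of the rest. Joined peaks on other chromosomes were not counted, so whether 9 of 485 is usual for the list is not known here. All 9 were 3 kb or wider, so they also count in the shares of wide replicate 2 peaks. Another 4 peaks of each list overlapped 2 of the other, but one of those partners also overlapped a further peak, so these are neighbouring peaks that touch at their edges. The 3 widest were all in the right interval, from 15076516 to 15082450 (5935 bp, score 949 over replicate 1 scores of 59.9 and 426), from 16488077 to 16493176 (5100 bp, 417 over 178 and 598) and from 13776841 to 13781172 (4332 bp, 1520 over 438 and 693).

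The pairs with the most unequal scores were named in each direction. Those with the highest ratio toward replicate 1 were on the rest of IV, from 9717724 to 9719281 (365 and 65.8, a ratio of 5.55), from 10501564 to 10505150 (339 and 67.3, 5.05) and from 17267964 to 17269583 (209 and 54.5, 3.83). Toward replicate 2 the highest was in the left end, from 2312870 to 2317791 (203 and 2758, a ratio of 13.6). That joined replicate 2 peak also overlapped a replicate 1 peak scoring 3217. The next pairs named were both in the right interval, from 14476244 to 14481612 (261 and 1372, a ratio of 5.25) and from 13929514 to 13933299 (83.5 and 372, 4.45). In these the replicate 2 peak was 2088 bp and 2050 bp the wider.

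Peaks of IV without a partner scored lower than its shared peaks. The median score of the 127 in replicate 1 was 81.4 and their median width 1314 bp, against 365 and 1617.5 bp in its shared peaks. For the 24 in replicate 2 the median score was 63.6, against 293 in its shared peaks. In replicate 1 the highest were from 7022471 to 7023826 (276), just right of the left interval, from 15645922 to 15647580 (254) in the right interval, from 3895260 to 3898208 (247), from 12890744 to 12892386 (242) and from 3227118 to 3228632 (212). In replicate 2 the 3 highest were all in the right interval, from 15765049 to 15766969 (198), from 16909873 to 16911627 (167) and from 16127999 to 16130057 (151). The next, from 1439855 to 1441536 (127) and from 3310506 to 3312112 (110), were in the left end. Those 3 of the right interval stood 59.6, 27.4 and 37.0 kb from the nearest replicate 1 peak.

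Only the border at 13500 kb cut through a peak. The 500 kb windows just outside the borders at 4500, 7000 and 13500 kb were fuller than the median window of IV. They held 22, 23 and 21 peaks in replicate 1 and 19, 17 and 18 in replicate 2. At 4500 kb the nearest peaks were from 4475456 to 4478058 outside (score 223 in replicate 1) and from 4510223 to 4512471 inside (1377). At 7000 kb the last peak inside, from 6918664 to 6920201 (346), was 80.6 kb from the border by its midpoint and the first outside, from 7011434 to 7013577 (250), 12.5 kb. At 13500 kb the peak from 13499357 to 13500971 (1143) straddled the border and fell inside by its midpoint, and the nearest outside, from 13486590 to 13488044, scored 518. At 17200 kb the last inside was from 17117096 to 17121685 (3100) and the first outside from 17249228 to 17250582 (383). Replicate 2 had a partner at each of these 8 places.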

How the data were processed

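Processed files of the 2 immunoprecipitations were used. BWA is the aligner named in the submitters' processing notes; its version, the peak caller's settings, how the input was used and the read depth were not given in the sources used here. Every deposited list holds the authors' peaks of 1 library, per the file headers in WormBase WS190 coordinates. The files name the peak caller in 2 ways, MACS in the peak names and MA2C in the source column, so the caller is not settled here. The score column is the authors' deposited score per peak, on a scale not stated, with a tied value at 3100. A score depends on depth and background as well as enrichment, and it was used only to rank and describe peaks.

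Peaks were placed in an interval by their midpoint, and neighbour distances were taken only within 1 stretch. Densities on the rest of IV used the span between the outermost peak ends found in either list. Sharing meant 1 bp or more of overlap. Peaks were paired by largest overlap. Values are given per list with the SD over 2 lists, and whether the replicates are separate cultures is not labelled. Named regions followed a rule (highest mean score percentiles, highest unpartnered scores, widest, longest empty stretches, densest and emptiest windows of 500 kb, border peaks, most unequal pairs, joined peaks, longest groups). The chromosome, intervals, comparisons and rule were chosen with earlier results of these data known. Alternatives moved the borders by 0.25 Mb, required a score of 100, required 50% overlap of both peaks, equalised list lengths or used 1 list. The code was checked on simulated data. Computation used SciPy 1.17.1, pandas 2.3.3 and NumPy 2.4.6 in Python 3.11.15, and plots matplotlib 3.10.9.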

Additional observations from a re-analysis of the deposited data

How the results depend on the processing

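Of 34 values recomputed from both lists, 19 moved by no more than the SD over the 2 lists, 10 moved by more and 5 changed sides. The causes were not tested. A single list always lies within that SD of the mean, so single lists are given only as ranges. The SD is wide where the lists differ, so these counts partly reflect how far the lists agree. The right interval's shared share difference counts as unmoved at 0.237 against 5.31, since its SD was 9.93. The left interval's density ratio counts as moved at 0.778 against 0.734, since its SD was 0.0244. The left interval's density ratio of 0.734 became 0.612 with borders 0.25 Mb inward, 0.851 outward and 0.778 with scores of 100 or more. Its width ratio of 0.959 became 0.930, 0.975 and 0.945 in the same order. Its spacing ratio of 1.15 became 1.61 inward and 1.06 with equal list lengths, an alternative added after seeing the data, but 0.984 outward and 0.900 with scores of 100 or more, so its direction depended on the setting. Its shared share differed from the rest by -0.604 percentage points, which became -3.55 inward, 1.82 outward, 3.95 with scores of 100 or more, 3.18 with equal list lengths, and ran from -2.24 to 1.03 over the single lists. In the right interval the density ratio of 0.781 became 0.864 with borders outward. Its shared share difference ran from -1.72 in replicate 2 to 12.3 in replicate 1, around a mean of 5.31, and was 0.237 with 50% overlap and 1.52 with scores of 100 or more. Its spacing ratio stayed between 0.595 and 0.697 under every alternative, and both density ratios stayed below 1. No paired analysis was possible because only the immunoprecipitations were analysed, so there is no second group to pair them with. Read depth is unknown, so a missing low-scoring peak says little.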

Other observations

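Near its right border the right interval held a compact group of strong and wide peaks, chosen here after its values were seen. From 17083638 to 17121707 (38.1 kb) there were 5 paired peaks. Of these, 4 scored 2500 or more in both lists, and 3 were 3 kb or wider in both. Peaks covered 50.3% of these bases in replicate 1 and 50.2% in replicate 2, against 5.47% and 5.83% of the whole interval. The nearest paired peaks ended 87.3 kb to the left and began 127 kb to the right.

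Score and width were positively correlated in both intervals and on the rest of IV. Spearman's rho between score and width was 0.727 and 0.730 in the left interval, 0.677 and 0.669 in the right, and 0.669 and 0.609 on the rest, for replicates 1 and 2 in turn. These are descriptions across 71 and 54, 102 and 93, and 424 and 338 peaks that share a library.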
